A study of Mus musculus with 8 samples.

Results

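The genes of the red cell lineage described here were 8 gene names, Hba-a1, Hba-a2, Hbb-b1, Hbb-b2, Alas2, Slc4a1, Epb4.2 and Rhag, taken as a gauge of how much blood RNA each lung sample held. They were found by their gene name on the array, which gave 9 probes of the 55660 probes used and 8 of 36153 gene names. Of the 8 genes, 6 were measured, among 24463 measured genes on the whole array. Epb4.2, with 2 probes, and Rhag did not rise well above background on enough arrays.

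The study measured RNA from whole lungs of C57BL/6 mice with single-colour Agilent arrays. One group carried a knockout of GGPPS1, the enzyme (mouse gene Ggps1) that makes geranylgeranyl pyrophosphate for the lipid modification of small GTPases, which the labels describe as restricted to the lung. The other group was wild-type. Each group had 4 mice. Every animal in both groups had received LPS, the bacterial endotoxin used to provoke lung inflammation, and was sampled 12 h later, so the comparison holds no lung without LPS. The promoter that restricted the knockout, the age of the mice and any flushing of blood from the lungs were not given in the sources used here.

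Adult haemoglobin is a tetramer of alpha and beta globin chains, each holding a haem group. The alpha chains come from the neighbouring genes Hba-a1 and Hba-a2 and the beta chains from a pair of adult genes in the beta globin cluster. Erythroid precursors make these mRNAs in the bone marrow, and reticulocytes, the young red cells of the blood, still carry them, so a whole organ yields haemoglobin mRNA with the blood it holds. Haemoglobin mRNA has also been described in alveolar epithelial cells. Alas2 encodes the erythroid enzyme for the opening step of haem synthesis, Slc4a1 the band 3 anion exchanger of the red cell membrane, Epb4.2 protein 4.2, which binds band 3, and Rhag the Rh-associated glycoprotein.

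The sequences of a pair of haemoglobin probes are shown as examples. Each 60-base probe has 1 reading frame without a stop codon. So short a sequence can have such a frame without being coding, and the probes were not compared with the coding sequences. The Hba-a1 probe lies on build mm9 at chr11:32183955-32184014 on the plus strand. The Hbb-b2 probe has no position on mm9 in the files, and RefSeq places the gene on chromosome 7. 
Hba-a1 probe: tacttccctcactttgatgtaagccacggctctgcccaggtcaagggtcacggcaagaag
Hbb-b2 probe: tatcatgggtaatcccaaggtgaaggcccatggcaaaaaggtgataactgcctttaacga

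The names of the beta globin probes need care. The accession of the probe named Hbb-b1 on the array belongs to Hbb-bt in RefSeq (GRCm38.p6), and its position on mm9 is chr7:110961105-110961164 on the minus strand. A further probe, named Beta-s on the array, carries an accession of Hbb-bs. C57BL/6 mice carry the haplotype with Hbb-bs and Hbb-bt, so which transcript binds the Hbb-b2 probe is uncertain. Hba-a1 and Hba-a2 are near-identical genes. The longest run shared by their 300-base promoter windows in RefSeq was 297 bases, while their probes shared no run longer than 6 bases. The probes were compared only with each other, which shows that they differ in sequence. Whether each alpha globin probe also binds the transcript of the other gene was not tested. The Hba-a2 probe lies at chr11:32197245-32197304 on the plus strand of mm9, Alas2 at chrX:147004993-147005052 on the plus strand and Slc4a1 at chr11:102210256-102210315 on the minus strand.

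Promoters are shown for Hba-a1, Hbb-bt, Hbb-bs and Alas2, whose signals moved together across the lungs, as described below. The Hba-a2 signal did not move with them, although its promoter window shared a run of 297 bases with that of Hba-a1. Any part of these promoter sequences in the signals was not tested. RefSeq promoter windows were matched for Hba-a1, Hba-a2, Alas2, Epb42, Rhag, Hbb-bt and Hbb-bs, with the names of GRCm38.p6. Slc4a1, Hbb-b1 and Hbb-b2 were not in that table. Motifs were searched in the 150 bases before the start of transcription. The CACCC box was searched by those letters on both strands. The CCAAT box was searched in the same way. The TATA box was searched as TATAA on the sense strand only. A GATA motif was searched on both strands and was any word that starts with AGATA or with TGATA and goes on with either purine, that is, AGATAA for example. GATA factors, the erythroid factor KLF1 and NF-Y are known to bind GATA motifs, CACCC boxes and CCAAT boxes. In each sequence, read 5′ to 3′ on the gene's own strand and ending at the base before the start, capitals mark the matches.
Hba-a1 promoter, chr11:32283522-32283671, plus strand: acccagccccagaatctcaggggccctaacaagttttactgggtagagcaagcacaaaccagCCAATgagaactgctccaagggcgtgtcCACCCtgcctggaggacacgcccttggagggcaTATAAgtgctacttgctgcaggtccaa
Hbb-bt promoter, chr7:103813924-103814073, minus strand: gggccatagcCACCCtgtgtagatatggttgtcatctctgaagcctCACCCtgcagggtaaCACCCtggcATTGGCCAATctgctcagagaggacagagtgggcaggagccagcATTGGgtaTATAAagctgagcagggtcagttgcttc
Hbb-bs promoter, chr7:103827929-103828078, minus strand: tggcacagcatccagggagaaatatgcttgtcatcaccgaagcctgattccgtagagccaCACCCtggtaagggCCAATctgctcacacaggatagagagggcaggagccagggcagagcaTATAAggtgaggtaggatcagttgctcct
Alas2 promoter, chrX:150547267-150547416, plus strand: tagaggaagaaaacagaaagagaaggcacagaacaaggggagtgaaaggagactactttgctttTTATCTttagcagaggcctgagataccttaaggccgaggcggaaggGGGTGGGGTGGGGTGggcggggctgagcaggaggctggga

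All 4 globin promoters held a TATA box, which 9.99% of the 32851 promoters in the table did. They also held a CCAAT box, as 24.5% of all promoters did, and a CACCC box, as 37.4% did. GATA letters were found in 16.0% of all promoters. Hbb-bt held 3 matches to the CACCC box and 3 to the CCAAT box, 2 of which lay side by side on opposite strands. Hbb-bs and both alpha globin promoters held 1 of each. The GATA letters were present in Alas2 and Rhag, each 1 time, and in none of the globin windows. Alas2 held 3 CACCC matches on the opposite strand and neither a CCAAT nor a TATA box. Epb42 had no match in this window, which says only that these letters are not in it.

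**Figure D1:**
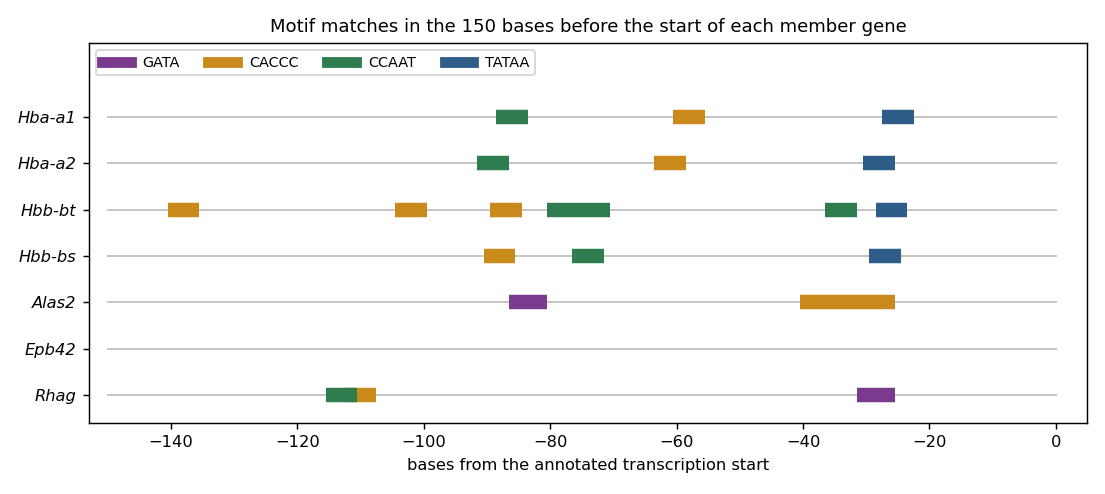
Matches of 4 motifs in the 150 bases before the annotated start of 7 genes, with the distance from the start in bases on the horizontal axis and each coloured bar spanning 1 match. In Hba-a1, Hba-a2, Hbb-bt and Hbb-bs the TATAA match begins 27 to 30 bases before the start, and Alas2 and Rhag are the genes with a GATA match.

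All values below are on the log2 scale, as the processed signal over the 75th percentile of its array, so a value of 1 higher is a doubling of signal, and values are compared within a probe only. Differences are knockout minus wild-type and were tested with limma over all 24463 genes, with Benjamini-Hochberg adjustment and a threshold of 0.05. In whole lung, fewer cells of a type and less RNA per cell cannot be told apart.

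Of the 6 measured genes, 5 were lower on average in knockout lungs and 1, Hba-a2, was higher, while 54.4% of all genes were lower. None passed the adjusted threshold with limma, which 0.0613% of all genes did. At an unadjusted p under 0.05, 1 of 6 was lower in knockout lungs, against 13.4% of all genes. The groups overlapped for all 6 genes, whereas 9.25% of all genes had every knockout sample below every wild-type sample. The median difference over the 6 genes was -0.52, against -0.03 over all genes. The wild-type group held both the highest and the lowest lung for Hba-a1, Hbb-b1, Hbb-b2 and Alas2.

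Hba-a1, an alpha globin gene, measured 8.60, 8.56, 8.51 and 8.35 in knockout lungs, against 9.21, 8.93, 8.84 and 8.06 in wild-type lungs. Wild-type lung 4 lay below all knockout lungs, and the other wild-type lungs lay above them. The difference was -0.25 ± 0.23 (SE, n = 4 per group, limma, adjusted p = 0.513).

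Hbb-b1, the beta globin probe with an Hbb-bt accession, measured 7.67, 7.58, 7.51 and 7.28 in knockout lungs, against 8.58, 8.28, 8.13 and 6.99 in wild-type lungs. The 4 knockout lungs spanned 1.31-fold and the 4 wild-type lungs 3.01-fold. Its mean was 7.51 ± 0.17 in knockout and 8.00 ± 0.70 in wild-type lungs (SD, n = 4 each), a difference of -0.49 ± 0.32 (SE, limma, adjusted p = 0.373). The order of the lungs was that of Hba-a1.

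Hbb-b2 measured 5.89, 5.85, 5.73 and 5.54 in knockout lungs and 6.97, 6.61, 6.47 and 5.19 in wild-type lungs. Again the wild-type group held both extremes. The difference was -0.55 ± 0.35 (SE, limma, adjusted p = 0.358). Within each array, the log2 ratio of the Hbb-b2 to the Hbb-b1 probe varied over a range of 0.19 across the 8 lungs, while Hbb-b2 alone ranged over 1.78 and Hbb-b1 over 1.59. The probes moved nearly in step. Their longest shared run was 6 bases, but whether both bind the same transcript was not tested.

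Alas2, the haem synthesis enzyme, measured 3.61, 3.35, 3.30 and 3.0 in knockout lungs, against 4.64, 4.40, 4.28 and 2.83 in wild-type lungs. Wild-type lungs 1 to 3 lay at least 0.67 above the highest knockout lung, and wild-type lung 4 lay 0.48 below the knockout mean. The difference was -0.72 ± 0.38 (SE, n = 4 per group, limma, adjusted p = 0.279).

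Slc4a1, the band 3 anion exchanger, had the widest span of the 6 genes. It measured -0.50, -0.92, -1.16 and -1.74 in knockout lungs, against 1.20, 0.05, 0.95 and -1.32 in wild-type lungs. Knockout lung 4 was lowest here, and wild-type lung 4 fell between knockout lungs 3 and 4. The mean was -1.08 ± 0.52 in knockout lungs and 0.22 ± 1.14 in wild-type lungs (SD, n = 4 each), which is 2.46-fold lower signal in knockout lungs. With limma this difference of -1.30 ± 0.55 (SE) had an unadjusted p of 0.0444 and an adjusted p of 0.201, and the lungs overlapped.

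The probe named Hba-a2, after the other alpha globin gene, did not follow the rest. It measured 9.08, 8.97, 9.02 and 8.94 in knockout lungs, against 9.07, 8.82, 8.83 and 8.81 in wild-type lungs. Its span over all 8 lungs was 1.20-fold, compared with 2.22-fold for Hba-a1, and the difference was 0.12 ± 0.08 (SE, limma, adjusted p = 0.414). The size of this small difference depended on the scaling, at 0.06 with median centring, 0.05 with quantile normalization and 0.01 in the authors' value table. The probe ranked between 9 and 13 in brightness on the 8 arrays. It had no saturated pixel, and its mean signal was 38.9% to 45.0% of the scanner's saturation value. The 50 brightest probes had a median log2 range of 0.28 over the 8 arrays, against 0.61 for all probes well above background on every array, but the Hba-a1 probe, at 22.8% to 48.3% of the saturation value, ranged over 1.15. Whether the Hba-a2 signal was limited at the bright end was not tested.

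**Figure D2:**
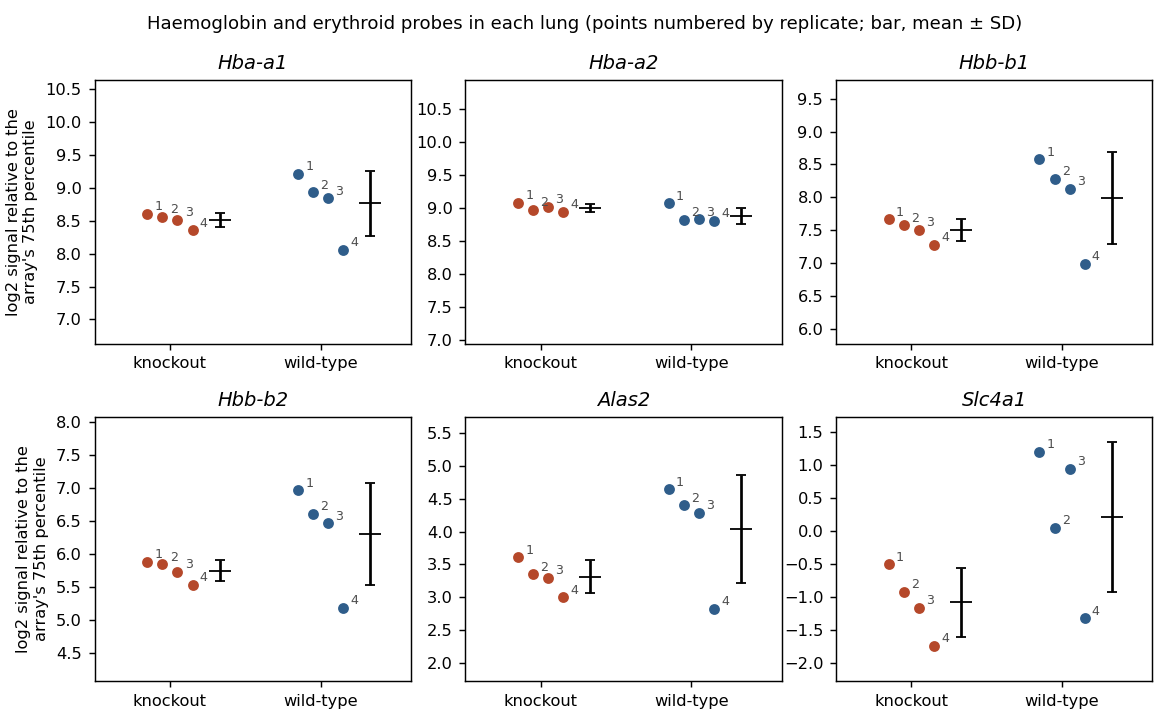
Log2 signal over the array's 75th percentile for the 6 measured genes, with knockout lungs on the left and wild-type lungs on the right of each panel, points numbered by replicate and bars giving mean ± SD (n = 4). Each panel spans the same 4 log2 units, and in all panels but that of Hba-a2 wild-type lung 4 sits below the other wild-type lungs by at least 0.78.

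The genes below the detection filter gave only bounds. For Rhag, no array of either group was well above background, with signals between -7.24 and -6.92 in knockout lungs and between -7.41 and -5.41 in wild-type lungs. One Epb4.2 probe was well above background on 0 of 4 knockout arrays and 1 of 4 wild-type arrays, and the other on none. The first gave -7.02 to -6.40 in knockout lungs and -6.41 to -4.30 in wild-type lungs. No fold is given, since 1 of the 8 arrays measured it.

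The wild-type lungs differed widely among themselves in these genes. The median SD of the 6 genes was 0.16 in knockout lungs and 0.74 in wild-type lungs, against a median of 0.19 in knockout and 0.17 in wild-type lungs over all genes. In wild-type lungs the SD of Slc4a1 exceeded that of 98.9% of genes, Alas2 97.6%, Hbb-b2 97.2%, Hbb-b1 96.3% and Hba-a1 91.4%. For Hba-a2 the figure was 34.1%. In knockout lungs the corresponding shares ran from 7.94% for Hba-a2 to 88.7% for Slc4a1.

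Averaged over the 6 genes after centring each on its own mean, the erythroid level was -0.04, -0.20, -0.28 and -0.54 in knockout lungs and 0.84, 0.42, 0.48 and -0.67 in wild-type lungs. Wild-type lung 1 was thus the highest and wild-type lung 4 the lowest. The order in which wild-type lung 4 lay below all knockout lungs and all knockout lungs below the other wild-type lungs held for Hba-a1, Hbb-b1, Hbb-b2 and Alas2. It was noticed in the values, and 0.356% of all genes, 87 in number, showed it. The looser order, with all knockout lungs below wild-type lungs 1 to 3 wherever lung 4 fell, held for 5 of the 6 genes and for 11.9% of all genes.

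The fit was repeated without each lung in turn. Without wild-type lung 4 the differences were -0.49 for Hba-a1, -0.82 for Hbb-b1, -0.93 for Hbb-b2, -1.13 for Alas2 and -1.81 for Slc4a1. These 5 genes then had unadjusted p-values under 0.05 (limma), as did 11.7% of all genes in the lower direction. Their adjusted p-values ran from 0.0682 for Alas2 to 0.108 for Hba-a1, so none passed, and 0.0912% of all genes did. Of the 5, 4 had an adjusted p under 0.1, which is not the threshold used here, as did 3.17% of all genes. Wild-type lung 4 was the lowest wild-type lung for all 5, so leaving it out had to widen their differences. The 5 genes also moved together across the lungs and do not count as 5 separate results. Without wild-type lung 1 the differences shrank to -0.10 for Hba-a1, -0.29 for Hbb-b1, -0.33 for Hbb-b2, -0.52 for Alas2 and -0.97 for Slc4a1, with adjusted p-values between 0.315 and 0.789. Hba-a2 stayed between 0.09 and 0.18 in all 8 of these fits. No member passed the adjusted threshold in any of them.

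**Figure D3:**
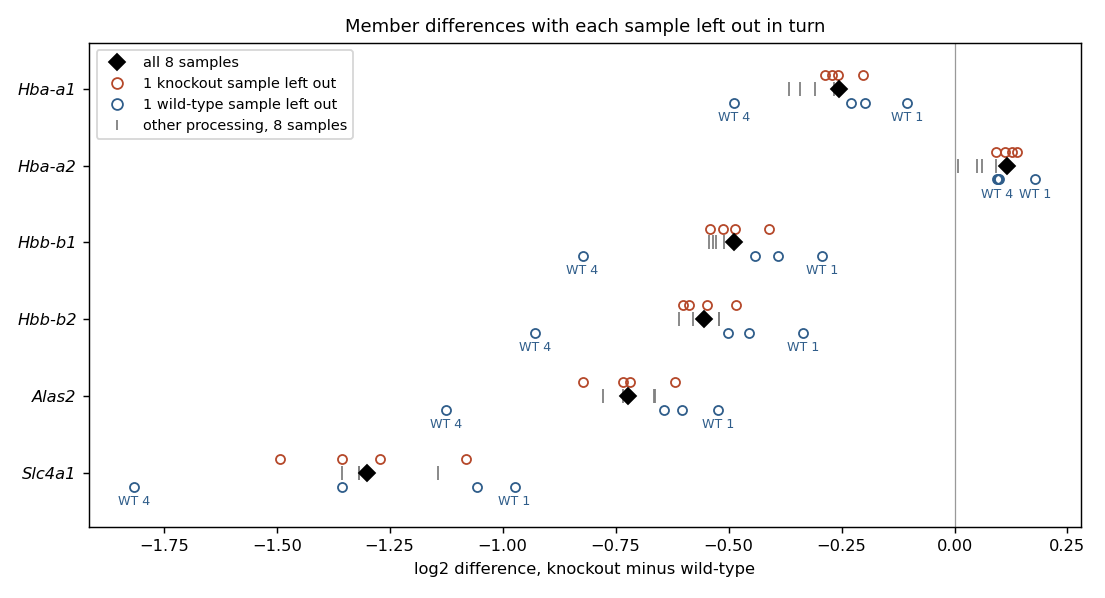
Log2 difference, knockout minus wild-type, for the 6 measured genes with all samples (diamonds), with 1 knockout or 1 wild-type sample left out (open circles), and with other processing of all 8 samples (vertical ticks). Leaving out wild-type lung 4 moves Alas2 to -1.13 and leaving out wild-type lung 1 moves it to -0.52, while all differences but those of Hba-a2 stay below 0.

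The genes most like Alas2 and Hbb-b1 over the 8 arrays were named by Pearson's r, leaving out clone and predicted-gene names. It is given as a description over 8 arrays that share their slide and normalization. For Hbb-b1 these were Zdhhc22 (r = 0.994), Beta-s (0.989), Gja3 (0.986), Bpgm (0.975) and Wdr62 (0.971). For Alas2 they were Zdhhc22 (0.979), Gja3 (0.978), Ahcyl2 (0.969) and Bpgm (0.967). Bpgm makes the red cell metabolite that lowers the oxygen affinity of haemoglobin. Zdhhc22 belongs to the palmitoyltransferase family, Gja3 encodes a connexin and Wdr62 a centrosomal protein. Among the members themselves, r with Hbb-b1 was 0.999 for Hbb-b2, 0.991 for Hba-a1, 0.990 for Alas2, 0.917 for Slc4a1 and 0.159 for Hba-a2.

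Beta-s, the Hbb-bs probe, measured 4.58, 4.63, 4.68 and 4.36 in knockout lungs, against 5.85, 5.39, 5.25 and 3.87 in wild-type lungs. Its difference of -0.53 ± 0.38 (SE, limma, adjusted p = 0.419) had the size of those of Hbb-b1 and Hbb-b2. Gm5226, whose probe RefSeq assigns to an alpha globin pseudogene, was left out by that naming rule and looked at after its values were seen. Its r was 0.989 with Hbb-b1 and 0.973 with Alas2. It measured 0.62, 0.65, 0.33 and 0.35 in knockout lungs and 2.02, 1.46, 1.38 and -0.27 in wild-type lungs, again with wild-type lung 4 at the bottom.

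**Figure D4:**
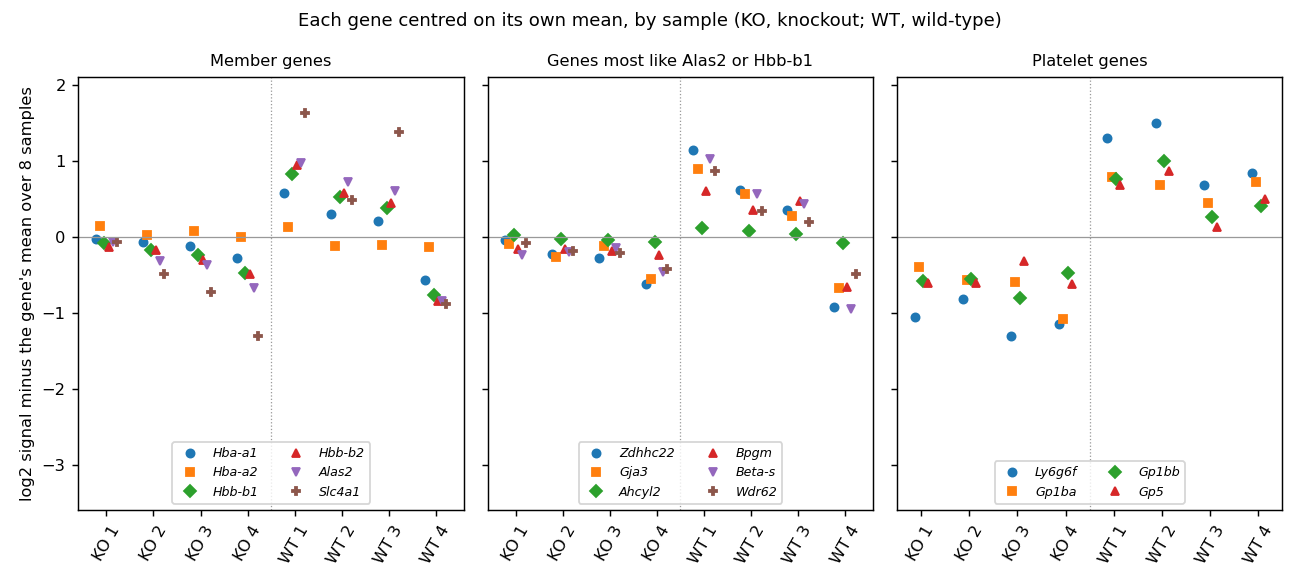
Log2 signal of each gene minus its mean over the 8 samples, by sample, for the 6 measured genes, for 6 genes most like Alas2 or Hbb-b1 and for 4 platelet genes. Wild-type lung 4 lies below 0 for all genes of the first and second panels and above 0 for the 4 platelet genes.

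Other genes of haemoglobin and red cell biology are given by list. In the list of other globin genes with Ahsp, the chaperone of free alpha globin, 9 of 13 genes were measured, 4 were lower and 5 higher in knockout lungs, and none had an unadjusted p under 0.05. Their median was 0.00. Ahsp measured -1.97, -1.99, -2.52 and -3.34 in knockout lungs, against -0.46, -1.64, -0.81 and -2.68 in wild-type lungs, a difference of -1.05 ± 0.51 (SE, limma, adjusted p = 0.254). Hbb-bh1, an embryonic beta-like globin, differed by 0.16 ± 0.09 (SE, limma, adjusted p = 0.331). Mb, the muscle oxygen store myoglobin, differed by 2.21 ± 1.53 (SE, limma, adjusted p = 0.401) and ranged from -0.87 to 4.34 in knockout lungs and from -2.12 to 3.74 in wild-type lungs.

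The haem synthesis list had 16 of 16 genes measured, with 9 lower and 7 higher in knockout lungs and a median of -0.07. None passed the adjusted threshold. At an unadjusted p under 0.05, 3 were lower and 1 was higher, where 13.4% of all genes were lower and 10.1% higher. Uros, which closes the porphyrin ring, measured 0.27, 0.29, 0.10 and 0.33 in knockout lungs, against 0.81, 0.64, 0.68 and 0.62 in wild-type lungs. The groups did not overlap for this gene, and the difference was -0.44 ± 0.08 (SE, limma, adjusted p = 0.0617). Tmem14c, a mitochondrial porphyrin transporter, differed by -0.33 ± 0.08 (adjusted p = 0.0799) and Abcb6, also a porphyrin transporter, by 0.34 ± 0.12 (adjusted p = 0.149). Slc25a37, the mitochondrial iron importer mitoferrin, differed by -0.23 ± 0.10 (adjusted p = 0.209), but by 0.32 when all its probes were averaged. For Uros and Tmem14c wild-type lung 4 lay above every knockout lung, unlike for the globins. Fech, of the same list, did show the order of Hba-a1. It measured 3.19, 3.16, 3.17 and 3.18 in knockout lungs, against 3.47, 3.49, 3.46 and 2.82 in wild-type lungs. Its difference was -0.14 ± 0.15 (SE, limma, adjusted p = 0.613), and -0.30 without wild-type lung 4.

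Of the 29 genes for the red cell membrane, skeleton, blood groups and enzymes, 21 were measured, 13 lower and 8 higher, with a median of -0.15. None passed the adjusted threshold with limma. An unadjusted p under 0.05 was found for 6, all lower in knockout lungs, against 13.4% of all genes. In 3 of 21 all knockout lungs lay below all wild-type lungs, against 9.25% of all genes. Trim10, a RING finger protein of erythroid cells, had the largest difference, -1.65 ± 0.50 (SE, limma, adjusted p = 0.115), in dim signal. The red cell urea transporter Slc14a1, also dim, differed by -1.05 ± 0.27 (adjusted p = 0.0860), and the carbonic anhydrase Car2 by -0.38 ± 0.14 (adjusted p = 0.162). Trim10 and Slc14a1 were each well above background on 3 of 4 knockout arrays. With normexp background correction their differences shrank to -0.55 and -0.36. Ank1, which ties the red cell skeleton to band 3, and Spnb1, beta spectrin, were looked at after their values were seen because heart muscle also expresses them. Ank1 measured -4.09, -2.50, -6.55 and -2.05 in knockout lungs and -4.93, -2.75, -4.51 and -6.76 in wild-type lungs. Its highest lungs were knockout lungs 2 and 4 and wild-type lung 2, which were also the highest for the cardiac muscle genes. Spnb1 measured -4.06, -2.56, -5.24 and -2.15 in knockout lungs and -2.97, -2.23, -4.21 and -4.93 in wild-type lungs. The same lungs were highest for Spnb1, followed by wild-type lung 1, the lowest for the cardiac genes. The part of heart muscle in the values of Ank1 and Spnb1 was not tested.

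Among the erythroid transcription factors and receptors, 14 of 16 genes were measured, 10 lower and 4 higher, with a median of -0.32. At an unadjusted p under 0.05, 4 were lower and 1 was higher, against 13.4% and 10.1% of all genes, and none passed the adjusted threshold. Gata1, the GATA factor of erythroid, megakaryocytic, mast and eosinophil cells, measured -1.71, -1.53, -1.87 and -2.29 in knockout lungs, against -0.99, -0.95, -1.18 and -0.97 in wild-type lungs. The groups did not overlap, and wild-type lung 4 lay with the other wild-type lungs. The difference was -0.83 ± 0.16 (SE, limma, adjusted p = 0.0626). Myb, a factor of immature blood cells, was the 1 in the other direction, at -0.16, -0.01, -0.23 and 0.32 in knockout lungs against -0.55, -0.94, -0.58 and -0.75 in wild-type lungs (difference 0.68 ± 0.14, SE, limma, adjusted p = 0.0646). With no filter on dim probes Gata1 and Myb passed the threshold (adjusted p = 0.047 for both, limma), as Gata1 did with normexp (adjusted p = 0.0467). The groups did not overlap for Myb either, and 6.08% of all genes had every knockout lung above every wild-type lung. The partner factors Lyl1 and Lmo2, which vascular cells also express, differed by -0.40 ± 0.10 and -0.36 ± 0.12 (adjusted p = 0.0889 and 0.129).

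For the clearance of haemoglobin and haem and the handling of their iron, 14 of 15 genes were measured, 8 lower and 6 higher, with a median of -0.23. None passed the adjusted threshold. At an unadjusted p under 0.05 there were 5 lower genes and 1 higher gene, where 13.4% of all genes were lower and 10.1% higher. Slc48a1, which brings haem out of the phagosome, was higher by 0.43 ± 0.11 (SE, limma, adjusted p = 0.0879), with 4.41, 4.52, 4.72 and 4.71 in knockout lungs and 4.28, 3.98, 4.08 and 4.31 in wild-type lungs. Slc40a1, the iron exporter ferroportin, differed by -1.02 ± 0.30 (adjusted p = 0.108). It measured 0.09, 0.20, 0.68 and -0.88 in knockout lungs, against 0.94, 1.30, 0.98 and 0.93 in wild-type lungs, with no overlap. Hmox1, the haem oxygenase that opens the haem ring, differed by -0.51 ± 0.17 (adjusted p = 0.131), and Blvra, which reduces the resulting biliverdin, by -0.24 ± 0.08 (adjusted p = 0.134).

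Blood also carries platelets, neutrophils and lymphocytes, and their lists were set beside the erythroid level. All 15 platelet genes were lower in knockout lungs (14 with quantile normalization), with a median of -0.98, and 11 of 15 had every knockout lung below every wild-type lung, against 9.25% of all genes. Gp1ba and Ly6g6f passed the adjusted threshold in the lower direction, as 0.0286% of all genes did, while 0.0327% passed in the higher direction. That split of 7 lower and 8 higher genes became 23 lower and 13 higher with median centring. Gp1ba, part of the platelet receptor that binds von Willebrand factor, measured -1.82, -2.0, -2.02 and -2.51 in knockout lungs and -0.64, -0.74, -0.98 and -0.70 in wild-type lungs. It fell by 1.32 ± 0.15 (SE, limma, adjusted p = 0.0459). Ly6g6f fell by 2.16 ± 0.20 (SE, limma, adjusted p = 0.0315), but it was well above background on 2 of 4 knockout arrays and entered the test through the wild-type arrays. With normexp background correction its difference was -0.86. Gp1ba lost the call in 12 of 18 other settings and Ly6g6f in 6 of 17. The number of platelet genes called ranged from 0, without wild-type lung 1 or 2 or knockout lung 1 or 2, to 9 with no filter on dim probes, and 7 were called with normexp. The centred platelet level was -0.59 to -0.36 in knockout lungs and 0.08 to 0.89 in wild-type lungs, and wild-type lung 4, the lowest lung for the erythroid genes, stood at 0.54.

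With the erythroid level of each lung as a covariate, 15 of 15 platelet genes were still lower, with a median of -1.05, and 12 had an unadjusted p under 0.05, where 8.59% of all genes were lower at that level. In that fit 0 platelet genes passed the adjusted threshold. The differences were -1.27 for Gp1ba and -2.01 for Ly6g6f (adjusted p = 0.214 for both, limma), close to those without the covariate. Over all genes 2 passed, 0.00818%. The erythroid level itself was lower on average in knockout lungs, so the covariate and the genotype shared part of their variation. The part of blood content in the platelet values was not tested.

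All 11 measured lymphocyte genes were lower in knockout lungs, as were 54.4% of all genes. Their median was -0.47, and 5 had an unadjusted p under 0.05, against 13.4% of all genes. Their level was -0.65 to 0.13 in knockout lungs and 0.11 to 0.40 in wild-type lungs. Of 11 measured neutrophil genes, 6 were lower and 5 higher, with a median of -0.04. Their level was -0.29 to 0.22 in knockout lungs and -0.12 to 0.36 in wild-type lungs. At an unadjusted p under 0.05, 2 were lower, Cxcr2 (-1.10) and Retnlg (-0.57), and 0 were higher. Both had every knockout lung below every wild-type lung, as 9.25% of all genes did, while Ltf (1.11) and Ngp (0.74) were higher on average. None of the lymphocyte or neutrophil genes passed the adjusted threshold. With normexp 1 neutrophil gene passed, as did 1 with no filter on dim probes. Of 10 alveolar type 2 cell genes, 7 were lower, with a median of -0.22, and 4 of them had an unadjusted p under 0.05. These were Sftpa1 (-0.54), Lyz2 (-0.52), Abca3 (-0.51) and Napsa (-0.33), none past the adjusted threshold. The count at that unadjusted level was 0 with quantile normalization and 1 in the authors' value table. It was also 0 without wild-type lung 3, knockout lung 2 or knockout lung 4. Of 10 endothelial genes 6 were lower, with a median of -0.11. All 10 cardiac muscle genes were higher in knockout lungs on average, with a median of 1.66, none with an unadjusted p under 0.05. The median was 1.04 without wild-type lung 1, and without wild-type lung 2 it was 2.49 and 9 of 10 genes had an unadjusted p under 0.05 (limma). Their level was 0.12, 2.19, -0.99 and 2.14 in knockout lungs and -2.84, 1.84, -1.24 and -1.23 in wild-type lungs. The highest lung was knockout lung 2 for the cardiac genes and wild-type lung 1, which was the lowest for the cardiac genes, for the erythroid level. The part of any of these cell types in the erythroid values was not tested.

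**Figure D5:**
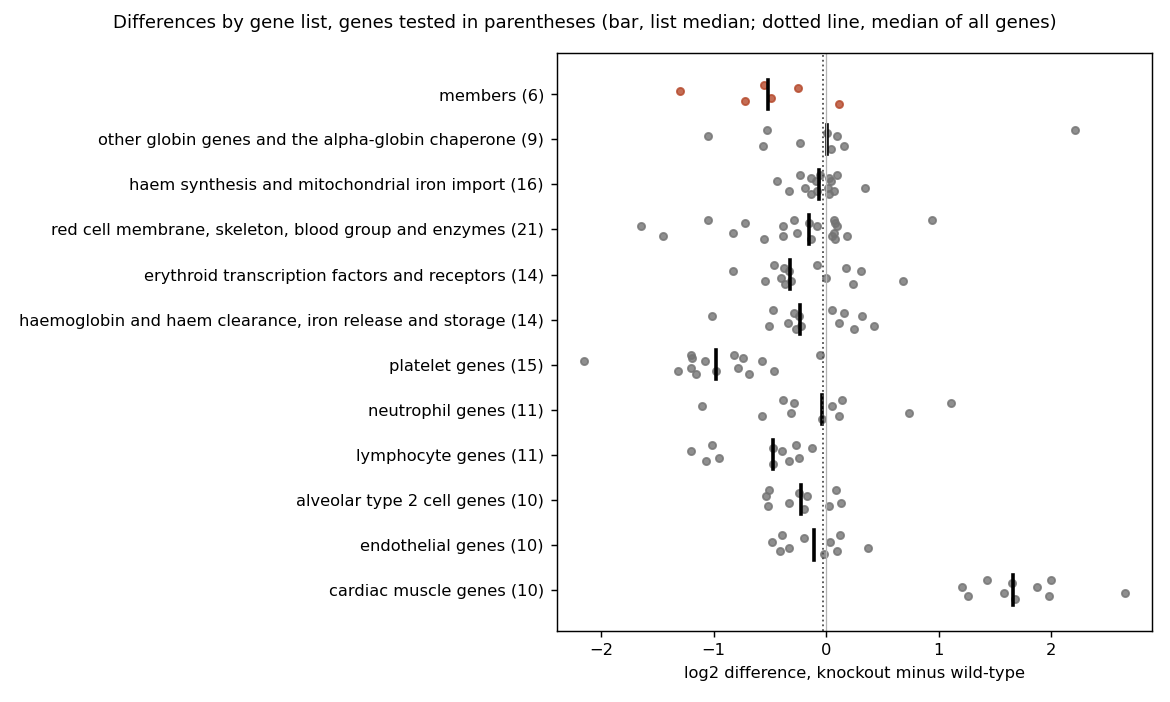
Log2 difference, knockout minus wild-type, of each measured gene (points) in 12 lists, with the list median as a black bar and the median of all genes, -0.03, as a dotted line. The 6 member genes have a median of -0.52, all platelet genes lie below 0 and all cardiac muscle genes above it.

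The lung markers Sftpc, Sftpb, Sftpa1, Scgb1a1, Ager and Pecam1 were well above background on every array. Sftpc, the surfactant protein C of alveolar type 2 cells, measured 8.91 to 9.29 in knockout lungs and 8.92 to 9.12 in wild-type lungs, and Sftpa1 measured 6.08 to 6.91 in knockout lungs and 6.77 to 7.34 in wild-type lungs. All 8 arrays lay on 1 slide and were scanned on 1 day. The knockout arrays filled row 2 of the slide and the wild-type arrays row 1, so position and genotype cannot be told apart. Between 58.1% and 61.6% of probes were well above background on knockout arrays, against 61.5% to 65.3% on wild-type arrays. The 3 Ggps1 probes differed by -0.12, -0.06 and 0.19, none past the threshold, and since the deleted part of the gene is not given they do not check the labels.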

How the data were processed

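Total RNA from 8 whole lungs was labelled with Cy3 and hybridised to single-colour arrays, per the labels' protocols. Agilent Feature Extraction 10.7.1.1 read the scans, per the file headers. The deposited scanner files give an intensity per spot, already corrected for background, on build mm9. The authors' deposited value table is on a log2 scale, has a median of 5.63 in every column, and served as an alternative. Its scale was found by setting it against the scanner values, and its normalization is not stated in the labels.

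Control and outlier spots were left out, spots of a probe were averaged, and the 75th percentile of each array was subtracted from its log2 processed signals. A probe was kept if well above background on at least 3 of 4 arrays of a group. Each gene was represented by its brightest kept probe. The test was limma 3.58.1 (lmFit, eBayes, two-sided, R 4.3.3) with Benjamini-Hochberg adjustment over 24463 genes, and its script was tested on simulated data. The number of arrays limits the precision.

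Named genes were the 8 members, Ggps1, up to 4 genes per list with the smallest unadjusted p, any that passed, and the 5 genes most correlated with Alas2 and with Hbb-b1, of which 1 is not reported here. Other names were chosen after their values were seen. The members and lists were chosen with earlier results of these data known. Promoters and current names came from RefSeq (GRCm38.p6). The alternatives tried were normexp (offset 50), quantile normalization, median centring, other filters and probe rules, the value table, the replicate block, the erythroid level as a covariate, and each sample left out.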

Additional observations from a re-analysis of the deposited data

Results flagged for a closer look

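Among 120 groups of 4 samples of the named genes, 6 held a sample far from the other 3, by Dixon's test at the 95% level. Chance flags about 1 in 20 groups. Hba-a2 was 9.07 in wild-type lung 1, where the nearest other wild-type lung was at 8.83. In the knockout group, Trim10 was -6.01 in lung 3 (nearest -4.77), Car2 was 1.52 in lung 4 (nearest 1.95) and Gp5, a platelet glycoprotein, was -2.36 in lung 3 (nearest -2.65). In the wild-type group, Gata1 was -1.18 in lung 3 (nearest -0.99) and Slc40a1 was 1.30 in lung 2 (nearest 0.98). Wild-type lung 4 did not reach that level for any member gene.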

How the results depend on the processing

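The 6 measured member genes kept their direction and stayed short of the threshold in all 17 alternative settings that give them a value, with adjusted p-values from 0.0682 for Alas2 without wild-type replicate 4 to 0.952 for Hba-a2 in the authors' value table. The count of genes past the threshold in the whole table moved widely, from 8 higher and 7 lower: normexp background correction gave 229 higher and 284 lower, median centring 13 and 23, no filter on dim probes 2721 and 785, a filter on all 8 arrays 59 and 68, the mean of a gene's probes 4 higher, each probe on its own 11 lower, and the erythroid covariate 1 and 1. Leaving out 1 sample gave 1 to 14 higher and 0 to 15 lower. With the replicate number as a block (replicate block) 34 genes were lower and 12 higher, and no member passed. The deviations of samples with the same number correlated at r of 0.13, 0.47, 0.01 and -0.29, and since these are not all above 0.1 the numbers were not taken as pairs. Under the erythroid covariate the signs of Beta-s (0.12), Zdhhc22 (0.11), Bpgm (0.0509) and Gm5226 (0.10) turned. The covariate is the mean of the member genes, and these 4 genes had r of 0.975 to 0.994 with Hbb-b1. The fit thus removed most of their variation by construction, and nothing is drawn from their signs in it. Averaging probes turned Slc25a37 (0.32) and Ggps1 (0.00489). Lcn2 and S100a9, neutrophil genes, turned with quantile normalization (-0.0184 and -0.00945) and in the value table (-0.0373 and -0.0263). Counted over pairs of another named gene and an alternative setting, 18 pairs lost the threshold and 15 pairs gained it. Gp1ba lost it in 12 settings and Ly6g6f in 6. With 4 samples a group, the wild-type SD of 0.49 to 1.14 in 5 of the members limits what these data can show.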
